A study of Caenorhabditis elegans with 3 samples.

Results

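The col genes are the collagens of Caenorhabditis elegans that are named col and numbered, most of them collagens of the cuticle. Their transcript levels were set side by side in animals with oocytes only and animals with sperm only. Members were selected by name: every row of the deposited table whose gene symbol on the array platform, or current symbol, was col- followed by a digit. This gave 154 rows for 134 genes out of 21611 rows in all, and 19 of the genes had more than 1 row, which were averaged on each array. Another 3 rows named a col gene together with a second gene and were left out, and 25 of the 159 col genes in the RefSeq gene table had no row of their own and were not analysed here. All 134 genes had a value on every array, so no member was lost to missing values.

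The animals were mutants: fem-1(lf) has lost the function of fem-1, and in fem-3(gf) the gene fem-3 is overactive. XX animals of the fem-1(lf) genotype make oocytes and no sperm, and those of the fem-3(gf) genotype make sperm and no oocytes. Messenger RNA of both genotypes was hybridised together on 3 arrays of 2 colours, with 1 prep of each genotype on each array, numbered prep 1 to prep 3, and all arrays form 1 group. The labels give no allele number, age, stage, growth temperature or tissue, nor whether different cultures gave the preps, so that the p-values cover the spread among these arrays alone, part of which may be technical. Every value is a log2 ratio of the genotypes as deposited, where 1 is a 2-fold difference. A ratio above 0 likely stands for more RNA in fem-1(lf): no label names the dyes, but the descriptions name fem-1(lf) first, all 8 listed oocyte markers were above 0 (means 2.10 to 3.49) and all 8 listed sperm markers below 0 (means -6.63 to -2.58). A ratio set by fewer epidermal cells cannot be told apart from one set by less collagen RNA per cell.

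The cuticle is the exoskeleton of the worm, a layered matrix made largely of small collagens that the epidermis secretes at each moult. In the endoplasmic reticulum the collagen chains are hydroxylated on proline, folded by disulphide isomerases and joined into triple helices, and outside the cell they are trimmed by proteases and cross-linked by an oxidase and peroxidases. Different col genes are used at different stages and moults, and most of them have no role known from mutants, whereas a few relatives named for their mutant shapes (dumpy, roller, squat, blister) build the furrows and struts of the cuticle. Many of these genes are similar in sequence, and a spot may have bound RNA of more than 1 of them. The sequences of the spots and of the proteins were not used here.

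Most col genes gave small ratios between the genotypes, and 3 stood apart on the fem-3(gf) side. Spot intensities were not analysed here, so a small ratio could not be told apart from a spot near background. The mean log2 ratio of col-53 was -3.68, of col-151 -1.58 and of col-165 -1.002, while the other 131 lay between -0.75 and 0.53. Of the 134 genes, 26 (19.4%) were lower and 3 (2.24%) higher in fem-1(lf) by limma (adjusted p under 0.05 over all 19731 features), against 23.7% lower and 21.0% higher among all features. In either direction the test called 21.6% of the col genes and 44.7% of all features. An average of at least 2-fold was reached by 3 col genes (2.24%), against 18.9% of all features. The 95% interval of the mean lay wholly within 2-fold either way for 116 col genes (86.6%), against 68.2% of all features, and it reached or passed 2-fold for the other 18. The plot of members by rank shows a flat family with a steep left end.

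**Figure D1:**
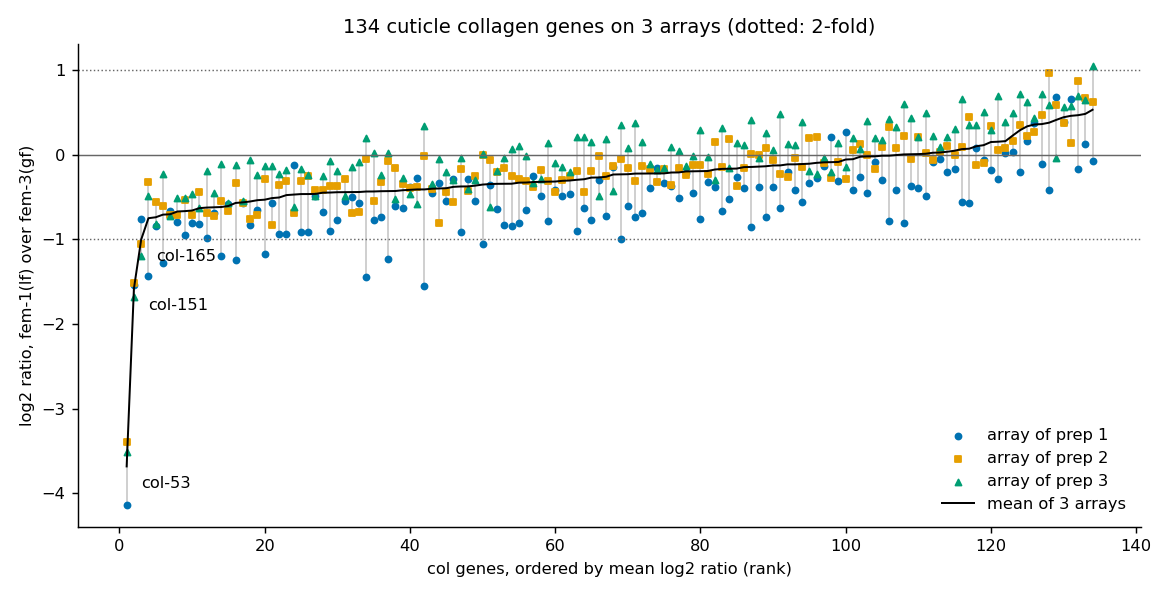
Log2 ratio of fem-1(lf) over fem-3(gf) for 134 col genes, ordered by their mean. Points are the 3 arrays, grey bars span them, the black line is the mean of 3 arrays and dotted lines mark 2-fold; only col-53, col-151 and col-165 have means at or below -1.

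The family as a whole sat at a different place on each array. Its median log2 ratio was -0.50 on the array of prep 1, -0.18 on that of prep 2 and -0.04 on that of prep 3, and the median of the gene means was -0.25. Over all features the medians were -0.15, -0.07 and -0.07, with -0.10 for the means, so the family lay 0.36 below all features on the array of prep 1 and 0.12 below on that of prep 2, and 0.03 above on that of prep 3. Members below 0 numbered 123 (91.8%) on the array of prep 1, 100 (74.6%) on that of prep 2 and 71 (53%) on that of prep 3, against 59.7%, 54.7% and 54.8% of all features. The family was thus mostly on the fem-3(gf) side on the array of prep 1 and evenly divided on that of prep 3.

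**Figure D2:**
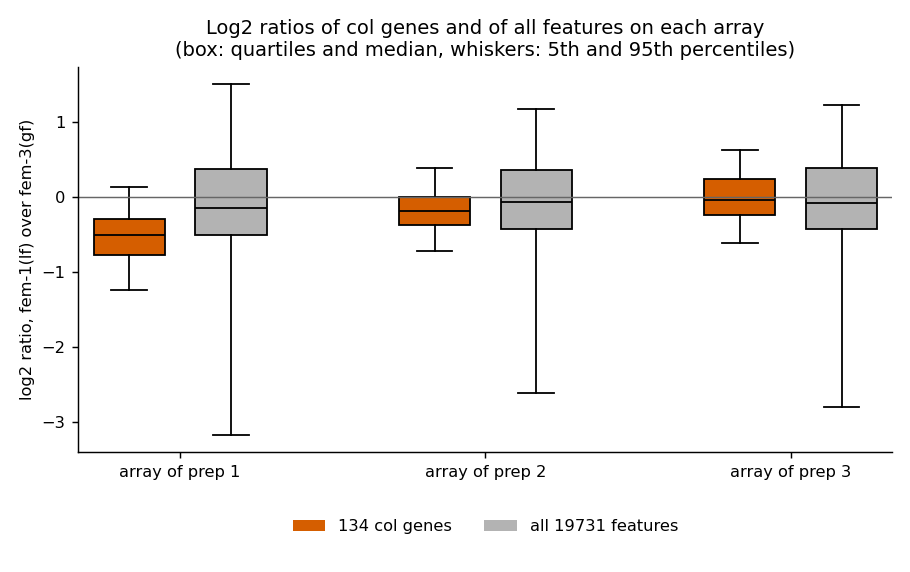
Log2 ratios of 134 col genes (orange) and of all 19731 features (grey) on each array. Boxes give the quartiles and the median, and whiskers the 5th and 95th percentiles; the col median is -0.50, -0.18 and -0.04 on the arrays of preps 1, 2 and 3.

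The offset was shared by most members. The lowest of the 3 values was on the array of prep 1 for 100 col genes (74.6%), against 40.9% of all features, and the highest was on the array of prep 3 for 97 (72.4%), against 27.9%. After each array was centred on the median of all its rows these counts were 89 (66.4%, against 33.5%) and 93 (69.4%, against 25%). The median difference of prep 1 minus prep 3 was -0.46 for the col genes and -0.02 for all features. The sign was the same on all arrays for 71 col genes (53%), 64 of them below 0 and 7 above, against 70.8% of all features. On the same arrays the median of the 8 oocyte markers was 3.53, 2.60 and 2.59, highest on the array of prep 1 where the col genes were lowest. The median of 8 sperm markers was -5.02, -4.98 and -5.11 there. Their part in the offset was not tested.

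**Figure D3:**
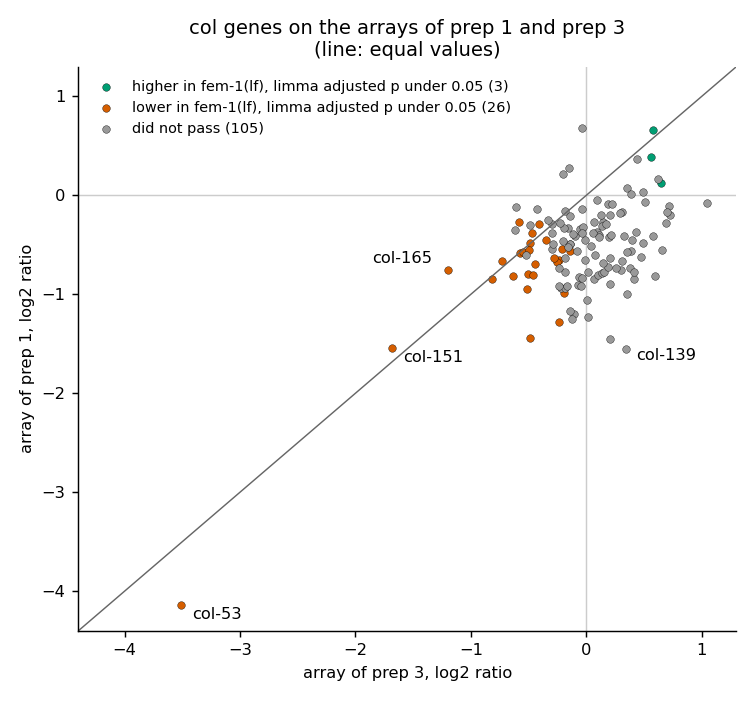
Log2 ratio of each of 134 col genes on the array of prep 1 (vertical axis) against that of prep 3 (horizontal axis), with the line of equal values. Green points are the 3 genes higher and orange points the 26 genes lower in fem-1(lf) by limma, grey points the 105 that did not pass; most points lie below the line.

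The gene farthest from the family was col-53 (M01A12.1, chromosome I). Its log2 ratios were -4.13, -3.40 and -3.51 on the arrays of preps 1, 2 and 3, all far below those of any other member. The mean was -3.68 ± 0.40 (SD, n = 3), a 12.8-fold lower level in fem-1(lf) with a 95% interval of -4.12 to -3.24 and a limma adjusted p of 4.97e-05. Both of its rows showed this, with means of -3.97 and -3.39. Leaving out each array moved the mean between -3.82 and -3.45 and kept the call. This ratio lies within the span of the 8 sperm markers (means -6.63 to -2.58). That span is not particular to sperm genes, since it also holds the intestine marker asp-1 (-2.74) and the epithelial gene let-413 (-2.62). The tissue that gave the RNA of col-53 was not tested.

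The other members at or beyond 2-fold were col-151 and col-165, each with 1 row. The values of col-151 (AC3.6, chromosome V) were -1.54, -1.52 and -1.69, with almost no spread between the arrays. Its mean was -1.58 ± 0.09 (SD, n = 3), 2.99-fold lower in fem-1(lf) (limma adjusted p = 0.000258). The values of col-165 (F14H12.1, chromosome X) were -0.76, -1.05 and -1.20. Here the array of prep 1 gave the highest value, opposite to the offset of the family, and the mean was -1.002 ± 0.22 (SD, n = 3; 2.003-fold lower in fem-1(lf), limma adjusted p = 0.00256). Both calls held without any single array. The mean of col-165 was -1.12 without prep 1, but short of 2-fold without prep 2 (-0.98) or prep 3 (-0.90). Against a change of more than 1.5-fold (limma treat), col-53 and col-151 passed as lower and 0 members as higher (0 also at an unadjusted p under 0.05), against 9.19% and 7.25% of all features. The same 2 genes were the only members beyond 2-fold on each array on the fem-3(gf) side, with 0 on the other, against 8.41% and 5.20% of all features.

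The next members in the order were much nearer to the rest. The fourth lowest, col-49, had -1.44, -0.33 and -0.49, so that its mean of -0.75 came largely from the array of prep 1, and it did not pass without prep 1 (-0.41) or without prep 3 (-0.88). col-180 had -1.28, -0.61 and -0.23 and a mean of -0.71, and did not pass without prep 1 (-0.42) or prep 2 (-0.76). In contrast, col-52 was at -0.66, -0.72 and -0.73, a mean of -0.70 ± 0.04 (SD, n = 3). The means of col-75, col-167, col-60 and col-90 were -0.74, -0.67, -0.67 and -0.66, with SDs of 0.16, 0.15, 0.25 and 0.18. These 7 genes had limma adjusted p-values of 0.00479 to 0.0467, and of the last 5 named only col-90 lost its call without an array (prep 2, -0.63).

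The other 16 col genes that fell had means between -0.63 and -0.37 and limma adjusted p-values between 0.00831 and 0.0498. Among them, col-110 was at -0.82, -0.45 and -0.63, col-65 at -0.69, -0.72 and -0.45, and col-162 at -0.58, -0.66 and -0.57, all below the family on every array. col-127 was at -0.99, -0.69 and -0.20, and its level moved with the offset of the family. col-131, col-45 and col-122 had means of -0.46, -0.41 and -0.40 with SDs of 0.04, 0.05 and 0.05, so that small ratios passed where the arrays gave nearly equal values. Each of these 7 calls was lost without some array. That array was prep 3 for col-110 (-0.63), prep 2 for col-65 (-0.57), preps 1 and 2 for col-127 (-0.44 and -0.59), and preps 2 and 3 for col-162 (-0.58 and -0.62), col-131 (-0.49 and -0.45) and col-45 (-0.43 and -0.39). For col-122 it was each of the preps 1, 2 and 3 (-0.38, -0.40 and -0.43). Over the 29 called genes the median SD was 0.17 and the median size of the mean 0.56, and over the 105 others 0.32 and 0.23.

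The number of calls depended on single arrays and on where 0 was set. Of the 26 lower calls, 15 were kept without prep 1, 9 without prep 2 and 13 without prep 3, where 16, 9 and 15 col genes passed in that direction, against 20.5%, 15.8% and 13.8% of all features. With each array centred on the median of all rows, 14 col genes were lower and 5 higher in fem-1(lf) by limma, against 18.3% and 23.8% of all features. With each array centred on the median of the col genes, 3 were lower (col-53, col-151 and col-165) and 11 higher, against 12.7% and 27.4%. At an adjusted p under 0.01 on the deposited scale, 8 were lower and 0 higher by limma, against 12.9% and 13.7%. At an unadjusted p under 0.05 by limma, 43 were lower and 4 higher. The share of all features at that threshold was not worked out. It cannot be below the 23.7% lower and 21.0% higher that passed at an adjusted p under 0.05. These 2 counts have no closer baseline.

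Only 7 of the 134 members had a ratio above 0 on all arrays, against 5812 of all 19731 features. Of these 7 members, 3 passed as higher in fem-1(lf). The values of col-35 (chromosome I) were 0.39, 0.38 and 0.56 (mean 0.44 ± 0.11, SD, n = 3, 1.36-fold, limma adjusted p = 0.0282). Its 2 rows had means of 0.19 and 0.70. For col-98 (chromosome III) the values were 0.13, 0.67 and 0.65, and for col-86 (chromosome II) 0.66, 0.14 and 0.58. Their means were 0.48 ± 0.31 and 0.46 ± 0.28 (limma adjusted p = 0.0496 and 0.0498). None of these held throughout: col-35 did not pass without prep 2 (0.47) or prep 3 (0.38), col-98 without prep 2 (0.39) or prep 3 (0.40), and col-86 without prep 1 (0.36) or prep 3 (0.40). Without prep 1, 7 col genes passed as higher, without prep 2 it was 1 and without prep 3 it was 0 (1 at an unadjusted p under 0.05), against 20.3%, 15.7% and 14.6% of all features.

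The others above 0 on every array were col-84, at 0.37, 0.26 and 0.44 (limma adjusted p = 0.0515), and col-159, col-141 and col-54, with means of 0.34, 0.23 and 0.16. The highest mean of the family belonged to col-44 on the X chromosome, at 0.53 ± 0.57 (SD, n = 3). Its values were -0.08, 0.62 and 1.05, so they fell on both sides of 0, and it did not pass (limma adjusted p = 0.106). col-158 was alike, at -0.17, 0.88 and 0.70.

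Members that changed place most between the arrays had their own lowest value on the array of prep 1. They were not all low within the family there, since col-133 lay 0.09 above the family median. The largest SD was that of col-139 (chromosome V), at -1.55, -0.02 and 0.34, followed by col-81 at -1.45, -0.06 and 0.20. After them came col-129 at -0.81, 0.22 and 0.60, col-133 at -0.41, 0.965 and 0.58, and col-39 at -0.997, -0.05 and 0.36. None of these 5 passed, and the mean of col-129 was 0.00. Of all members, 23 (17.2%) had an SD over 0.5, against 10.8% of all features. All 23 were lowest on the array of prep 1, 19 were highest on that of prep 3, and 2 passed the test (col-49 and col-180). The median SD was 0.28 for the col genes and 0.22 for all features.

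Repeated rows of a gene differed by as much as many of the ratios themselves. Over the 19 genes with more than 1 row, the median gap between the lowest and the highest row mean was 0.31, and for 18 of them it was at most 0.58. The row means of 7 genes lay on opposite sides of 0. The largest gap, and the only gap over 1, was that of col-118 on chromosome IV. One of its rows had a mean of -0.64 and the other 0.69, a gap of 1.32, so its averaged ratio of 0.03 describes neither. The members with means nearest to 0 besides col-129 were col-182, col-62 and col-69, at 0.00, 0.01 and 0.01. RefSeq lists col-182 as a pseudogene.

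Collagens with a known stage of use gave ratios within the range of the family. These genes were picked for their known roles after the values were seen. col-19 and col-7 are collagens of the adult cuticle. The values of col-19 were -0.69, -0.13 and 0.15, and those of col-7 were -0.79, -0.31 and 0.14. col-17, which is used in larvae and shut off in adults, had -0.61, -0.16 and 0.07. col-2, a collagen of the dauer larva, had -0.16, 0.00 and 0.30. The adult and larval collagens thus followed the same offset between the arrays, and none of the 4 passed (limma adjusted p-values between 0.228 and 0.801).

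Other members with a known role also had means within 2-fold. col-10, col-13 and col-120 are collagens whose forced expression lengthens life, and their means were -0.51, 0.07 and -0.57. On the array of prep 1 alone col-120 was beyond 2-fold, at -1.25, against -0.34 and -0.12 on those of preps 2 and 3, and its 95% interval reached -1.15. Of them col-10 passed narrowly (-0.56, -0.83 and -0.14, limma adjusted p = 0.0498), and did not without prep 1 (-0.49) or without prep 2 (-0.35). col-41, col-141 and col-142, which respond to the body size signal DBL-1, had means of -0.37 ± 0.16, 0.23 ± 0.24 and -0.21 ± 0.28 (SD, n = 3), and none passed. col-99, which encodes a membrane-bound collagen and not one of the cuticle, was at -0.09, -0.06 and 0.22.

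Many col genes lie side by side in the genome, and neighbours differed from each other by up to 0.76 in their means. In the gene table, 41 measured col genes fell into 18 runs with at most 1 other protein-coding gene between members. The range of means within a run had a median of 0.21, from 0.01 for col-104 and col-105 to 0.76 for the run of col-79, col-39 and col-80. In the run of col-17, col-20 and col-73 on chromosome II the means were -0.23, -0.17 and -0.34. In that of col-79, col-39 and col-80, also on chromosome II, they were -0.40, -0.23 and 0.36. The run of col-92, col-93 and col-94 on chromosome III had 0.01, -0.27 and 0.29.

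On chromosome V, col-141, col-142 and col-143 had means of 0.23, -0.21 and -0.01, and col-144, col-145 and col-10 had -0.02, -0.51 and -0.51. Among these 15 genes col-79 and col-10 were called lower. The call of col-79 (mean -0.40) was lost without prep 1 (-0.32), prep 2 (-0.37) or prep 3 (-0.49). A pair on chromosome I, col-50 and col-51, had -0.17 and -0.20.

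The nearest pair in level, col-104 and col-105 on chromosome IV, did not share its pattern over the arrays. col-104 was at -0.63, -0.35 and -0.28, and col-105 at -0.27, -0.38 and -0.58, so the order of the arrays was turned round. Both passed as lower, but not without prep 2 or prep 3 (-0.46 and -0.49 for col-104, -0.43 and -0.33 for col-105), and col-104 also not without prep 1 (-0.31). Of the neighbours col-9 and col-44 on the X chromosome, col-9 was at 0.27, -0.29 and -0.15 and col-44 was the highest of the family. col-159, above 0 on all arrays, lies beside col-160, which was at -0.85, 0.01 and 0.41. No likeness of neighbours was tested, and neighbouring genes may be alike in sequence.

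**Figure D4:**
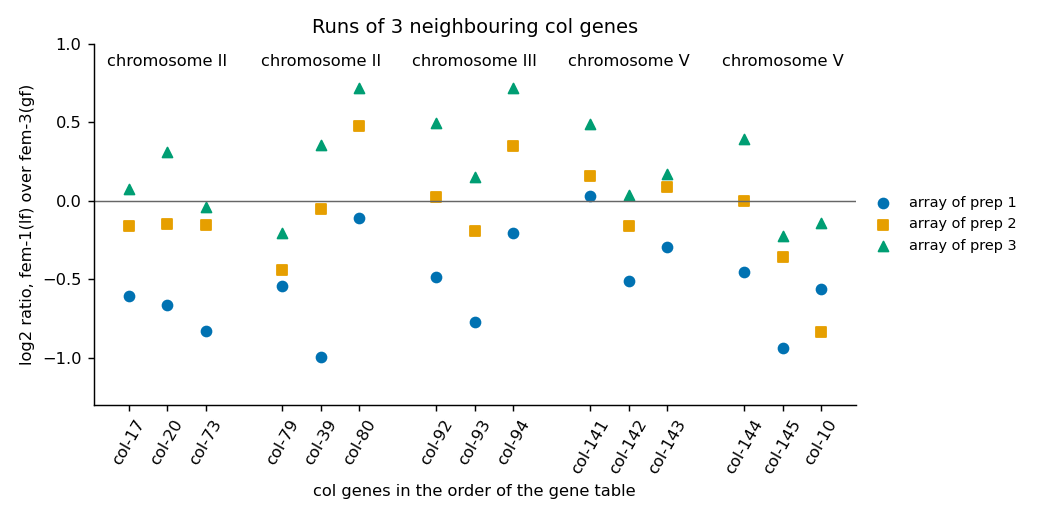
Log2 ratios on the 3 arrays for the 5 runs of 3 neighbouring col genes, in the order of the gene table. Except for col-10, the array of prep 1 gave the lowest value of each gene, and it gave none above 0.03.

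The median of the col gene means was below 0 on every chromosome, although on the array of prep 3 some medians were above 0. It was -0.23 on chromosome I (18 genes), -0.22 on II (21), -0.20 on III (10), -0.37 on IV (32), -0.15 on V (29) and -0.32 on X (24). On the array of prep 3 alone the median was above 0 on chromosomes II (0.07), III (0.10) and V (0.11), and below 0 on I (-0.17), IV (-0.08) and X (-0.17). Over all features the medians were 0.02, -0.07, 0.06, -0.12, -0.14 and -0.12. The share of col genes past the test was 38.9%, 14.3%, 20.0%, 25%, 17.2% and 16.7% in the same order, against 56.8%, 49.5%, 53.6%, 54.6%, 36.6% and 36.1% of all features on these chromosomes.

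The cuticle collagens known from mutant shapes had ratios close to those of the col genes. Of 17 measured, 0 were higher in fem-1(lf) by limma, also at an unadjusted p under 0.05 and with robust variances, and 3 (17.6%) were lower, against 21.0% and 23.7% of all features. Their median was -0.29, and on the arrays of preps 1, 2 and 3 it was -0.57, -0.23 and -0.07, close to the col genes. dpy-17, whose collagen works with that of sqt-3, was at -0.57, -1.33 and -1.41 (mean -1.10, limma adjusted p = 0.00684). Unlike the family it was highest on the array of prep 1. The others that fell were rol-8 at -0.58, which did not pass without prep 3 (-0.54), and rol-6 at -0.51, which lost its call when any single prep, 1, 2 or 3, was left out (-0.46, -0.47 and -0.60). The furrow collagens dpy-2, dpy-3 and dpy-7 had means of -0.34, -0.35 and -0.29, the strut collagens of the adult, bli-1 and bli-2, -0.12 and -0.34, and sqt-3 -0.23. None of these 6 passed.

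The 3 basement membrane collagens lie under the tissues and not in the cuticle. Of them, 2 (66.7%) were lower in fem-1(lf) and 0 higher, against 23.7% and 21.0% of all features. Their medians of -0.56, -0.66 and -0.41 were not lowest on the array of prep 1. The type IV chain genes let-2 and emb-9 were at -0.77, -0.88 and -0.42, and at -0.56, -0.66 and -0.41 (limma adjusted p = 0.011 and 0.0148). The call of let-2 was lost without prep 2 (-0.595), and that of emb-9 without prep 2 (-0.49) or prep 3 (-0.61). cle-1, which encodes another collagen of basement membranes, was at -0.31 and did not pass.

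Genes that fold, trim and cross-link collagen were divided between the genotypes. Of 22 measured, 6 (27.3%) were higher and 7 (31.8%) lower in fem-1(lf), against 21.0% and 23.7% of all features, and their medians on the arrays were -0.30, -0.17 and -0.15. Higher were dpy-11, a thioredoxin-like protein of the epidermis, at 1.02, 1.33 and 1.33 (mean 1.22, limma adjusted p = 0.000978), and the disulphide isomerase gene pdi-3 at 1.09, 0.81 and 0.77 (mean 0.89). Lowest was phy-3, which encodes a prolyl 4-hydroxylase subunit, at -1.51, -1.58 and -1.14 (mean -1.41 ± 0.24, SD, n = 3, limma adjusted p = 0.000787). The epidermal hydroxylase gene dpy-18 was at 0.21 and the cross-linking oxidase gene bli-3 at -0.09, and neither passed. The peroxidase gene mlt-7 was lower at -0.48 and lost its call when any single prep, 1, 2 or 3, was left out (-0.38, -0.52 and -0.52).

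Of the cuticlins and other matrix genes, 1 of 35 (2.86%) was higher and 8 (22.9%) lower in fem-1(lf), against 21.0% and 23.7% of all features. Their medians of -0.23, -0.20 and -0.24 showed no offset between the arrays. The matrix gene let-653 was higher at 1.07, 0.56 and 0.57 (limma adjusted p = 0.0115). The lowest were cutl-15 at -0.95 and cut-3 at -0.92, which did not pass without prep 2 (-0.91 and -0.72) or prep 3 (-0.64 and -0.87). The 17 moulting genes had medians of -0.45, -0.35 and -0.56, lowest on the array of prep 3. Of them, 1 (5.88%) was higher and 8 (47.1%) lower, against 21.0% and 23.7% of all features. nhr-23, the nuclear receptor that drives moulting, was at -1.16, -0.93 and -0.997 (mean -1.03, limma adjusted p = 0.0014). Whether its RNA came from the epidermis or from the germ line was not told apart. The hedgehog-related gene qua-1 had a mean of -0.93. pan-1 was higher at 0.375, a call lost when prep 1, 2 or 3 was left out (0.34, 0.43 and 0.36).

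**Figure D5:**
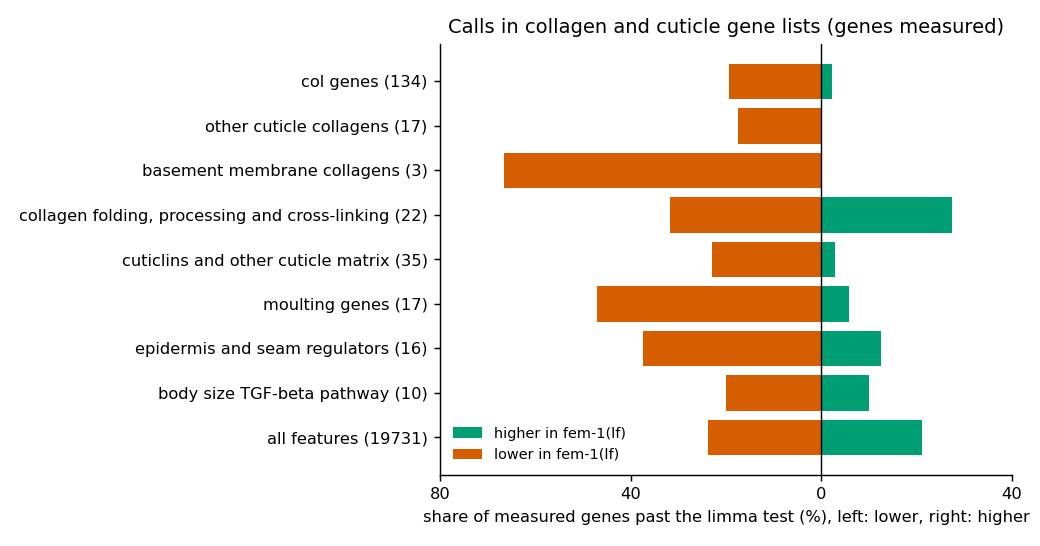
Share of measured genes in each list that were lower (orange, left) or higher (green, right) in fem-1(lf) by limma at an adjusted p under 0.05, with the number of genes measured in brackets. The col genes, at 19.4% lower and 2.24% higher, have few calls on the fem-1(lf) side compared with 21.0% of all features.

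Markers of the epidermis, which makes these collagens, lay on both sides, with more called lower than higher. Of the 16 measured regulators and structural genes, 2 (12.5%) were higher and 6 (37.5%) lower in fem-1(lf), against 21.0% and 23.7% of all features, with medians of -0.42, -0.12 and -0.16 on the arrays. The GATA factor gene elt-1, which specifies the epidermis, was at -1.63, -1.44 and -1.38 (mean -1.48, limma adjusted p = 0.000385). The epithelial polarity gene let-413 was at -3.37, -1.37 and -3.12. Another GATA factor gene of the epidermis, elt-3, was at -1.49, -0.77 and -0.80 (mean -1.02, limma adjusted p = 0.00659). The other lower genes were hbl-1 at -0.98, blmp-1 at -0.65 and ifb-1 at -0.52. Only ifb-1 of these 3 lost its call when prep 1, 2 or 3 was left out (-0.39, -0.59 and -0.59). The labels name no tissue, so RNA of these genes from the epidermis was not told apart from RNA of the germ line. The epithelial factor gene lin-26 was at 1.75, 0.97 and 0.97 (mean 1.23), and egl-18, a GATA factor gene of seam cells, had a mean of 1.56. Of 10 genes of the body size TGF-beta pathway, which regulates several collagens, the receptor gene daf-4 was higher at 0.66 and lon-1 and the Smad gene sma-4 lower at -0.97 and -0.60, and sma-4 did not pass without prep 3 (-0.62). The medians of that list were -0.53, -0.05 and -0.09 on the arrays, also lowest on that of prep 1. Of 3 markers of muscle, pat-10 was lower at -1.07, and unc-54 at -0.16 and myo-3 at -0.07 did not pass. Of 3 of intestine, asp-1 was lower at -2.74 and elt-2 at -0.49, the second not passing when prep 1, 2 or 3 was left out (-0.39, -0.59 and -0.50), and ges-1 was at 0.09. Of 3 of neurons, rab-3 was lower at -0.47 but not without prep 2 (-0.52) or prep 3 (-0.42), while unc-119 at 0.32 and snb-1 at 0.33 were above 0 on all arrays and did not pass. The part of the makeup of the tissues in the ratios of the col genes was not tested.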

How the data were processed

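Each array holds log2 ratios of its channels, used as the authors deposited them. The base comes from the numbers themselves: taken as log2, 99.99% of 64209 ratios are whole thousandths (tolerance 0.01). Array medians over all rows were -0.15, -0.07 and -0.07. Scaling, centring, background correction and dyes are not named by the labels or the file, so scale and centring stay unknown and the direction is likely only. The number of arrays limits the precision, and no dye effect can be taken out.

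Row names come from the annotation of the platform and, for current symbols, chromosomes and gene order, from RefSeq's genes of WBcel235. Of 21611 rows, 16450 had 1 gene, 247 several and 4914 none; col-175 was matched by symbol only. Rows of a gene were averaged. All 19731 features with 3 values were fitted in limma 3.58.1 under R 4.3.3 (intercept against 0, eBayes, two-sided, Benjamini-Hochberg). The fit was checked on simulated data with independent features and no offset between arrays, so that check does not bear on the col calls. An exact sign test of 3 arrays stops at a p of 0.25, and what limma calls thus leans on variance pooled over the features.

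The members, lists and tests were chosen with earlier results of these data known. Genes named: the 10 lowest and up to 10 highest with 1 sign on all arrays (7 above 0), the 5 largest SDs, the 5 farthest from the family on each side, the 4 nearest 0, genes whose rows differ by over 1, neighbours, and the 2 largest calls on each side of each list; members of known role, further called members and neighbours, list genes beyond these and the closing observations were added after their values were seen. A planned naming of pairs by protein identity was not run. Alternatives were other centrings and scaling, 2 of 3 arrays, leaving out each array, robust variances, treat, single rows and stricter thresholds. Figures were drawn with matplotlib 3.10.9.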

Additional observations from a re-analysis of the deposited data

How the results depend on the processing

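Each array already holds 1 ratio of both genotypes, so the test against 0 compares the genotypes within arrays. All arrays form 1 group, and no further pairing was possible. The 26 lower and 3 higher col genes depended on where 0 was set: 14 and 5 passed after centring on the median of all rows, and 17 and 6 after scaling too. Centring each array on the col median left 3 lower (col-53, col-151 and col-165) and 11 higher and set the family median to -0.0065. Under that centring limma pooled the variances far more (prior degrees of freedom 867, against 3.65 as deposited), and the part of this in the 11 calls was not tested. Features with values on at least 2 arrays gave 23 lower and 1 higher. At an adjusted p under 0.01, 8 were lower and 0 higher; limma treat against 1.5-fold gave 2 and 0 (0 at an unadjusted p under 0.05), and so did 2-fold on each array. Leaving out 1 array gave 9 to 16 lower and 0 to 7 higher, and a family median between -0.38 and -0.10. Of the other cuticle collagens, 3 were lower, against 1 after col centring, 1 at 0.01, 0 by treat (1 at an unadjusted p under 0.05), 0 by 2-fold on each array and 1 to 2 without an array. Single rows gave 26 lower and 2 higher, and the family median was -0.23 without col-53, col-151 and col-165, an alternative added after seeing the data. For all features the shares lower and higher were 19% and 24.6% after scaling, 23.2% and 20.6% with at least 2 arrays and 23.5% and 21.2% for single rows. Over 68 named collagens and 9 alternatives, 491 of 612 outcomes kept direction and call, 58 lost a call, 17 gained one and 46 changed sign without passing before or after; 0 called genes changed sign. Most of these outcomes are genes that passed neither before nor after. Of the 29 called col genes, 3 lower and 0 higher kept their call in all 8 alternatives other than treat. These 8 include the centring on the col median, which subtracts the family's own shift and so raises every member on each array. A lower call lost there therefore does not show that the call is unsteady. The lower calls of col-52, col-60, col-75 and col-167 were lost only there and by treat. For all features, the share of calls kept throughout was not determined. Spot intensities were not analysed here, so signal over background could not be weighed.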

Other observations

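The measured genes next to the 3 outlying collagens had means nearer to 0 or above it, and these neighbours were looked up after the values were seen. Of the 4 protein-coding genes nearest to col-53, 3 were measured: F46F11.1 had a mean log2 ratio of -0.05, F55F8.2 of 1.35 ± 0.08 (SD, n = 3, limma adjusted p = 0.000451) and F55F8.3 of 0.37. Next to col-151, AC3.5 was at 0.23, ugt-1, a glucuronosyltransferase gene, lower at -0.63 (limma adjusted p = 0.0183) and ugt-2 at -0.53, both on the same side as col-151, while spe-10, a sperm gene, was not analysed here. Next to col-165, F14H12.3, F14H12.2, F14H12.6 and F14H12.7 had means of 0.02, -0.26, -0.11 and -0.22, and none passed.

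The steadiest member was col-43, singled out after its values were seen, at -0.57, -0.57 and -0.55 (mean -0.56 ± 0.01, SD, n = 3; limma adjusted p = 0.0105, not passing without prep 2, at -0.56, or prep 3, at -0.57). It lay below the family on the arrays of preps 2 and 3 and close to it on that of prep 1. In the list of cuticle matrix genes, cutl-15 varied the other way from the col genes, with -0.26, -1.03 and -1.56 on the arrays of preps 1, 2 and 3.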
